A study of Danio rerio with 6 samples.

Results

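The genes described here carry class II antigen presentation in the zebrafish kidney: the invariant chain genes cd74a and cd74b, the class II chain genes mhc2dab and mhc2a, the regulators ciita and rfx5, and b2m, which stands for class I. They were chosen by name and matched to Ensembl identifiers by symbol or synonym, ignoring case. Of the 7 names, 6 matched 1 row each among the 32266 genes of the count tables; mhc2a matched no symbol or unique synonym and is given no value. All 6 passed the filter on low counts.

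Kidney RNA was sequenced from 6 pools, 3 from fish homozygous null for runx1, the del25 allele also called hg97, and 3 from wild type siblings. Every fish was of the EK strain and 2.5 months old, and each library was made from a pool of 3 kidneys, so differences between single fish are averaged within a pool. The allele disrupts a transcription factor gene of blood development and is carried in every tissue of the fish. The zebrafish kidney is the adult organ of blood formation as well as excretion, so a kidney library mixes blood precursors, mature blood cells and renal tubule.

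Class II molecules are pairs of an alpha and a beta chain that display peptides taken up from outside the cell to CD4 T cells. In mammals they are made mainly by B lymphocytes, macrophages and dendritic cells; the invariant chain CD74 holds the empty groove and guides the pair to endosomes, where cathepsins remove it. The coactivator CIITA, bound to a DNA complex that contains RFX5, switches on the class II and invariant chain genes together. Beta-2 microglobulin, the product of b2m, is the light chain of class I molecules, which nearly all cells carry.

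None of the 6 measured genes differed between runx1 null and wild type kidneys beyond the spread between pools, and for each of them the pools of both genotypes overlapped. The invariant chain genes and b2m lay slightly higher in the runx1 null mean, mhc2dab lay slightly lower, and the 2 regulators lay near equality. Of the 95% intervals for these 6 genes, the widest on the log2 scale ran from 0.385-fold to 1.97-fold (mhc2dab), runx1 null over wild type. The narrowest on that scale ran from 0.773-fold to 1.94-fold (cd74a). Levels below are in CPM, counts scaled to a common library size after trimmed-mean (TMM) normalization. They are not corrected for transcript length, so they are compared between libraries and not between genes.

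cd74a (ENSDARG00000009087) was at 124.0, 81.9 and 144.5 CPM in runx1 null pools 1, 2 and 3, against 93.7, 105.7 and 86.8 CPM in wild type pools 1, 2 and 3. The runx1 null pools held both the highest and the lowest value of all 6. The means were 116.8 ± 31.9 CPM in runx1 null and 95.4 ± 9.54 CPM in wild type (SD, n = 3 each). The log2 fold change was 0.29 (SE, the standard error, 0.28). The edgeR p-value adjusted by Benjamini-Hochberg over all 18865 genes tested was 0.813.

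cd74b (ENSDARG00000036628), the second invariant chain gene, was at 120.0, 80.6 and 128.6 CPM in runx1 null pools and at 102.2, 110.5 and 74.2 CPM in wild type pools. Its log2 fold change was 0.20 (SE 0.29, adjusted edgeR p 0.857). Runx1 null pool 3 was highest and wild type pool 3 lowest.

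mhc2dab (ENSDARG00000079105), a beta chain gene by its symbol, was at 60.9, 18.1 and 58.0 CPM in runx1 null pools and at 65.3, 58.1 and 34.0 CPM in wild type pools. Runx1 null pool 2 stood lowest, and the other runx1 null pools lay inside the wild type range. The means were 45.7 ± 23.9 CPM in runx1 null and 52.5 ± 16.4 CPM in wild type (SD, n = 3 each), a log2 fold change of -0.20 (SE 0.50, adjusted edgeR p 0.920). Without runx1 null pool 2 the log2 fold change of mhc2dab was 0.15 (adjusted edgeR p 0.912), so its sign depended on that library.

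b2m (ENSDARG00000053136) was at 636.5, 602.7 and 740.0 CPM in runx1 null pools and at 609.9, 636.0 and 396.0 CPM in wild type pools. Wild type pool 3 was the low one. The log2 fold change was 0.27 (SE 0.29, adjusted edgeR p 0.826).

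ciita (ENSDARG00000090851), the class II coactivator gene, was at 5.86, 4.94 and 5.04 CPM in runx1 null pools and at 5.11, 7.63 and 3.71 CPM in wild type pools. The runx1 null pools lay close together inside the wild type range. These CPM rest on 98 to 146 counts in a runx1 null library and 106 to 193 in a wild type library. The log2 fold change was -0.05 (SE 0.37, adjusted edgeR p 0.975).

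rfx5 (ENSDARG00000063258), which encodes a subunit of the X box binding complex, was at 19.8, 20.4 and 13.8 CPM in runx1 null pools and at 21.7, 16.7 and 13.01 CPM in wild type pools. Pool 3 was the lowest of its genotype in both. The log2 fold change was 0.07 (SE 0.30, adjusted edgeR p 0.956).

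**Figure D1:**
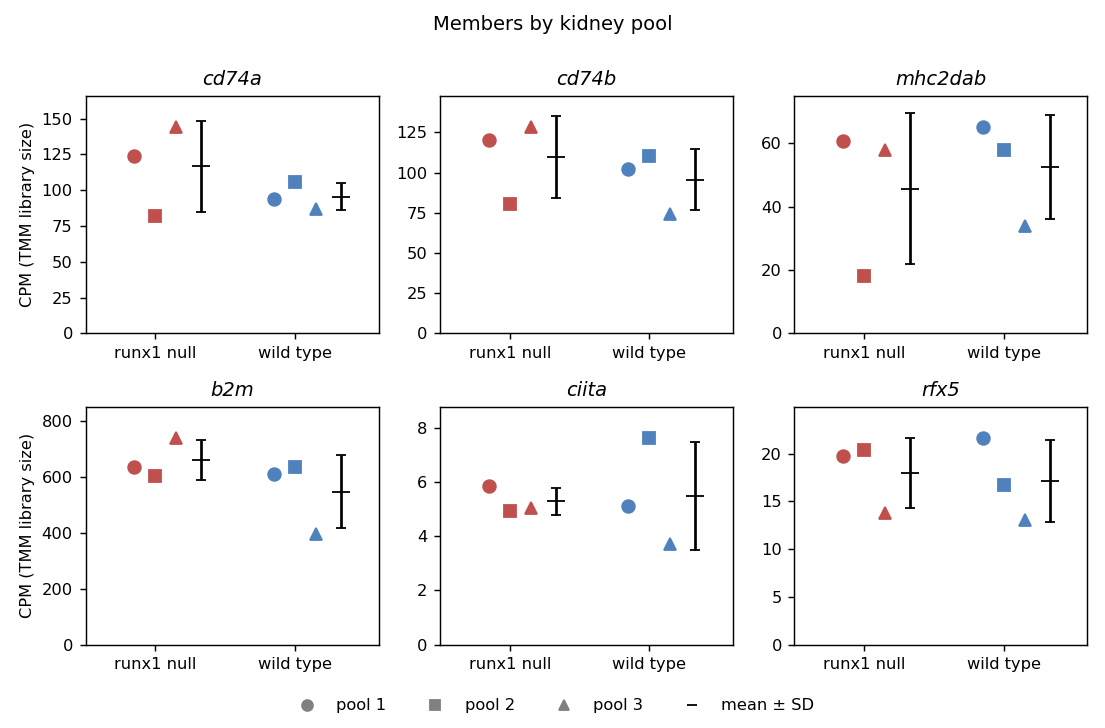
CPM of the 6 measured genes in each kidney pool (y axis, linear from 0; runx1 null left, wild type right; symbols mark pool 1, 2 and 3, and the bar is the mean ± SD of 3 pools). The genotypes overlap in every panel, and mhc2dab is low in runx1 null pool 2, at 18.1 CPM.

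Called at an adjusted p-value under 0.05 were 0 of the 6 genes. The background gave nothing to read this against: 0% of the 18865 genes tested passed in edgeR, the smallest adjusted p-value was 0.600, and 5.23% had an unadjusted p-value under 0.05. Of the 6 genes 0 had such an unadjusted p-value. The DESeq2 Wald test called 0.557% of all genes and 0 of the 6. The pools of both genotypes did not overlap for 12.5% of all genes tested and for 0 of the 6. The median log2 fold change of the 6 was 0.14, against -0.03 over all genes tested. The labels do not say whether the pools came from separate clutches, so these p-values measure the spread between pools.

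Whether 2 of these genes changed by different amounts was asked within each library, where the scaling of the library drops out. Of the 6 pairs planned, 5 had both genes. The difference of log2 CPM, mhc2dab minus b2m, averaged -4.04 ± 0.89 in runx1 null and -3.40 ± 0.16 in wild type (SD, n = 3 each), and its shift of -0.63 rested largely on runx1 null pool 2, at -5.05. Without that pool the shift was -0.12. The shifts of the other 4 pairs lay between -0.08 and 0.25, the last for cd74a minus ciita, which was 0.050 without runx1 null pool 3 and 0.063 without wild type pool 2. The two-sided exact permutation p-values of the 5 pairs ran from 0.3 to 1, where 0.1 is the smallest that 3 against 3 pools can give, and all were 1 after adjustment over the 5 pairs.

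The invariant chain genes ranked the pools of each genotype in the same order. The difference of log2 CPM, cd74a minus cd74b, had an SD of 0.08 in runx1 null and 0.19 in wild type (n = 3 each). The count of cd74a per count of cd74b stayed between 1.02 and 1.12 in runx1 null libraries and between 0.917 and 1.17 in wild type libraries. Likeness of profiles was measured as the root mean square difference of log2 CPM over the 6 libraries, each gene centred on its own mean. By this measure cd74a and cd74b lay 0.122 apart, and cd74b ranked 14 of the 8729 genes compared with cd74a, where the median gene lay 0.501 away. b2m ranked 251, rfx5 3304 and mhc2dab 4642 in the same order. The 3 genes nearest to cd74a were cox6b2 (0.066), OSBPL9 (0.071) and UBL3 (0.072). The 3 nearest to mhc2dab were aste1a (0.217), ALDH1L1 (0.220) and ERO1B (0.250), and the 3 nearest to b2m were zgc:165573 (0.086), serpinb14 (0.099) and KIF13B (0.133). These distances grow with the spread of each gene as well as with a difference of pattern. They describe 6 libraries and carry no test.

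The members also differed in how evenly the pools carried them. The standard deviation of log2 CPM within a genotype was 0.316 for cd74a, 0.336 for cd74b and 0.289 for b2m, and 22.8%, 25.8% and 18.5% of the genes tested had a smaller one. For ciita and rfx5 it was 0.375 and 0.340, and 31.9% and 26.4% had a smaller one. For mhc2dab it was 0.782, and 71.4% of the genes tested had a smaller one. These shares are over genes of all levels and are not matched for level. Of the genes tested, 94.6%, 94.4%, 99.4% and 86.2% had a lower mean log2 CPM than cd74a, cd74b, b2m and mhc2dab.

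Class II chain genes other than mhc2dab were read from every row whose symbol begins with mhc2. There were 13 such rows, of which 6 passed the filter, and each of their 78 values was within 0.001 of a whole number of counts. mhc2daa (ENSDARG00000031745), an alpha chain gene by its symbol, was at 27.1, 17.9 and 64.0 CPM in runx1 null pools and at 49.0, 49.1 and 26.3 CPM in wild type pools. Runx1 null pools held its highest and lowest values, and the log2 fold change was -0.19 (SE 0.51, adjusted edgeR p 0.929). Without runx1 null pool 2 it was 0.10. The count of mhc2daa per count of mhc2dab was 0.445, 0.985 and 1.104 in the runx1 null libraries and 0.750, 0.846 and 0.772 in the wild type libraries, so runx1 null pool 1 had the least mhc2daa for its mhc2dab.

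A second pair, mhc2dga and mhc2dgb, showed a different pattern. Both genes were nearly uncounted in wild type pool 1 and counted in the other 5 libraries. mhc2dga (ENSDARG00000103716) had 75, 172 and 378 counts in the runx1 null libraries and 0, 86 and 158 counts in the wild type libraries. mhc2dgb (ENSDARG00000104635) had 92, 201 and 325 counts in the runx1 null libraries and 1, 101 and 140 counts in the wild type libraries. In wild type pool 1 a count of 0 allows up to 3 counts, or 0.145 CPM, and covers counting error only. That library held mhc2daa and mhc2dab at 1015 and 1354 counts. In the RefSeq gene list of assembly GRCz12tu mhc2dga and mhc2dgb are adjacent, and 1 protein-coding gene lies between mhc2dgb and mhc2daa.

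The second pair took 10.0%, 24.9% and 17.1% of all mhc2 counts in the runx1 null libraries (exact binomial 95% intervals 8.63% to 11.6%, 22.7% to 27.1% and 15.98% to 18.3%). In the wild type libraries it took 0.040%, 6.39% and 12.9% (0.00101% to 0.223%, 5.53% to 7.34% and 11.5% to 14.3%). These intervals cover counting error and not the spread between pools. The 2 genes kept a steady ratio, with 0.815 to 1.16 counts of mhc2dga per count of mhc2dgb in the 5 libraries that held them.

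mhc2dga was at 8.11 ± 5.16 CPM in runx1 null and 2.74 ± 2.47 CPM in wild type (SD, n = 3 each), and its log2 fold change was 1.56 (SE 1.28, adjusted edgeR p 0.811). mhc2dgb was at 8.12 ± 3.47 CPM in runx1 null and 2.77 ± 2.36 CPM in wild type (SD, n = 3 each), with a log2 fold change of 1.55 (SE 1.103, adjusted edgeR p 0.811). Every runx1 null pool lay above every wild type pool for mhc2dgb, as for 6.24% of all genes tested, and the mhc2dga pools overlapped. Without wild type pool 1 the log2 fold changes of mhc2dga and mhc2dgb were 0.97 (adjusted edgeR p 0.718) and 0.97 (adjusted edgeR p 0.686). Leaving out runx1 null pool 3 gave 0.91 for mhc2dga. With the replicate number as a block they were 2.32 (adjusted edgeR p 0.914) and 2.27 (adjusted edgeR p 0.914).

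Low-count class II rows were high in another pair of libraries, among them the 4 given first. mhc2bl had 9, 3 and 30 counts in the runx1 null libraries and 35, 6 and 4 in the wild type libraries. mhc2d8.37a2 had 2, 5 and 28 counts in the runx1 null libraries and 52, 3 and 4 in the wild type libraries. mhc2d8.46a had 0, 0 and 6 counts in runx1 null and 7, 0 and 0 in wild type, and mhc2d8.37b2 had 0, 0 and 9 in runx1 null and 6, 0 and 0 in wild type. Runx1 null pool 3 and wild type pool 1 were thus the high libraries for all 4 rows, one of each genotype. Their 4 counts together were 11, 8 and 73 in the runx1 null libraries and 100, 9 and 8 in the wild type libraries. These rows were singled out after their values were seen, and no test was made of the pattern. mhc2d4b, which passed the filter, did not follow it: its counts were 13, 53 and 27 in runx1 null and 17, 21 and 21 in wild type (log2 fold change 0.65, SE 0.48, adjusted edgeR p 0.811). Nor did mhc2d8.45b1, with 0 counts in every runx1 null library and 2, 0 and 3 in the wild type libraries. mhc2dbb had 2, 2 and 9 counts in runx1 null and 8, 0 and 3 in wild type. mhc2d8.37a1 had 0, 0 and 2 in runx1 null and 2, 0 and 0 in wild type. Both were thus also highest in runx1 null pool 3 and wild type pool 1, on few counts. mhc2dcb had 1 count in all. Of the 7 mhc2 rows not passing the filter, mhc2d8.37a2 had the highest count.

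**Figure D2:**
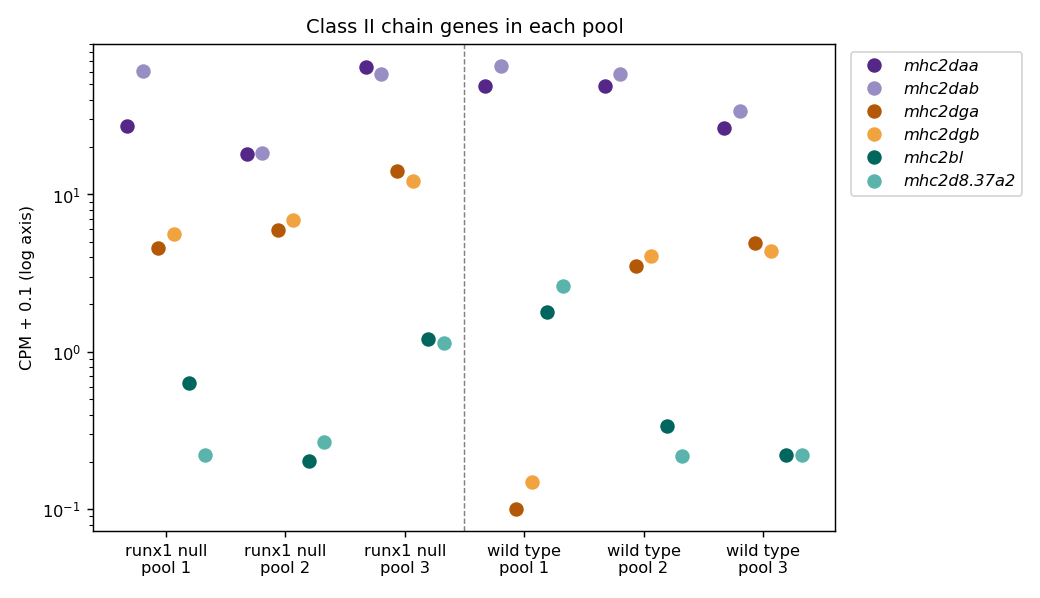
CPM plus 0.1 of 6 class II chain genes on a log axis in each pool, with runx1 null left of the dashed line and wild type right of it. mhc2dga and mhc2dgb drop to 0 and 1 counts in wild type pool 1, while mhc2bl and mhc2d8.37a2 are highest in wild type pool 1 and runx1 null pool 3.

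Summed over all 13 rows, the class II chains were at 99.6, 50.7 and 152.2 CPM in runx1 null pools and at 120.5, 115.8 and 70.4 CPM in wild type pools. The sum of cd74a and cd74b was 244.0, 162.6 and 273.1 CPM in runx1 null pools and 195.9, 216.2 and 161.0 CPM in wild type pools. The class II chain sum per unit of the cd74 sum was 0.408, 0.312 and 0.558 in runx1 null and 0.615, 0.535 and 0.437 in wild type. The ranges overlapped.

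Transcription factors of the class II promoter were read from a list of 11 names, 7 of which matched a row and were tested. Adjusted over all genes tested in edgeR, 0 rose and 0 fell, and 0 had an unadjusted p-value under 0.05. Their median log2 fold change was -0.05, against -0.03 over all genes tested. rfxank and rfxap, which encode the partners of RFX5, had log2 fold changes of -0.05 (SE 0.37) and -0.12 (SE 0.43). creb1a, whose product binds the neighbouring X2 element in mammals, was at 10.2 ± 0.0707 CPM in runx1 null and 12.4 ± 2.01 CPM in wild type (SD, n = 3 each), a log2 fold change of -0.28 (SE 0.25). Of the subunits of NF-Y, the complex that binds the Y box, nfyc had a log2 fold change of 0.20 (SE 0.21) and nfybb one of 0.59 (SE 0.32, adjusted edgeR p 0.811). nfybb was at 7.001, 5.14 and 7.27 CPM in runx1 null pools and at 3.57, 4.79 and 4.56 CPM in wild type pools. The groups did not overlap, as for the 6.24% of all genes tested that were higher in runx1 null without overlap.

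Genes of class II processing were read from a list of 15 names, 14 of which matched a row and 13 of which were tested. In edgeR 0 rose and 0 fell over all genes tested, and 1 had an unadjusted p-value under 0.05, against 5.23% of all genes. That gene was ctss1 (ENSDARG00000036940), named for cathepsin S, the protease that trims the invariant chain in mammals. It had 14, 25 and 28 counts in the runx1 null libraries and 35, 283 and 183 counts in the wild type libraries. In CPM this was 0.838, 0.846 and 1.04 in runx1 null and 1.69, 11.2 and 5.56 in wild type, so the groups did not overlap, as for the 6.25% of all genes tested that were lower in runx1 null without overlap. The log2 fold change was -2.75 (SE 0.70), the edgeR adjusted p-value 0.811 and the DESeq2 adjusted p-value 0.0192. ctss1 was the single gene of the antigen presentation lists that DESeq2 called, and over all genes that test called 105. Neutrophil markers were read beside it. Of 9 names on that list 4 matched a row and were tested, of which 3 had a log2 fold change below 0, with 0 called in edgeR, 2 called in DESeq2 and a median log2 fold change of -2.30. They summed to 82.9, 275.6 and 122.8 CPM in runx1 null pools and to 229, 1248 and 710.3 CPM in wild type pools, and the high value of runx1 null pool 2 was mmp9, at 228.6 CPM. Without overlap was lyz, a lysozyme gene (log2 fold change -3.14, adjusted edgeR p 0.780, DESeq2 adjusted p 0.0022). So was npsn, a granule protease gene (-3.23, adjusted edgeR p 0.600, DESeq2 adjusted p 3.859e-05). Of all genes tested, 6.25% were lower in runx1 null without overlap and 0.557% were called in DESeq2. The part of neutrophils in the ctss1 values was not tested.

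ctss2.1 and ctss2.2, the other genes named for cathepsin S, overlapped between genotypes. ctss2.1 was at 6.64, 14.9 and 23.2 CPM in runx1 null pools and at 11.7, 27.0 and 61.5 CPM in wild type pools, a log2 fold change of -1.16 (SE 0.68, adjusted edgeR p 0.811). Without wild type pool 3 it was -0.38. ctss2.2 had a log2 fold change of -0.07 (SE 0.34).

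The remaining endosomal genes varied within the spread between pools. ifi30, a thiol reductase of antigen processing in mammals, was at 73.5 ± 21.8 CPM in runx1 null and 73.8 ± 7.38 CPM in wild type (SD, n = 3 each), with a log2 fold change of -0.01 (SE 0.28). lgmn, the asparaginyl endopeptidase legumain, had one of 0.30 (SE 0.32), and ctsh, cathepsin H, one of -0.06 (SE 0.29). ctsba, named for cathepsin B, had a log2 fold change of -0.46 (SE 0.28), and ctsla, named for cathepsin L, one of -0.34 (SE 0.29). ctsd, cathepsin D, varied widely, at 253, 723 and 268 CPM in runx1 null pools against 383, 338 and 220 CPM in wild type pools, a log2 fold change of 0.40 (SE 0.48). marchf8, a membrane ubiquitin ligase, had one of -0.59 (SE 0.36), and marchf1 had 0 counts in all 6 libraries.

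**Figure D3:**
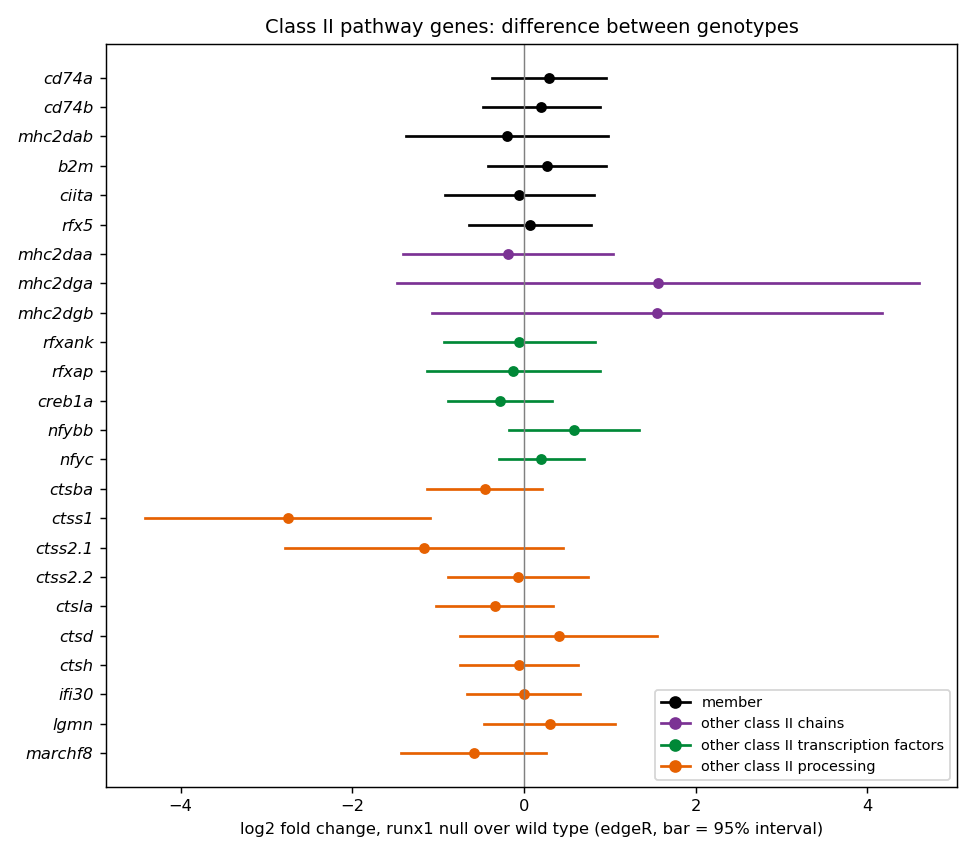
log2 fold change of runx1 null over wild type from edgeR for the 6 measured members and the other tested genes of the class II lists whose mean log2 CPM was 0 or more (x axis; point = estimate, bar = 95% interval before adjustment for many genes). The bar of ctss1 alone lies clear of 0, and its adjusted p-value is 0.811.

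On the class I side, b2ml, the second beta-2 microglobulin-like gene, was at 626.5, 510.1 and 476.7 CPM in runx1 null pools and at 594.6, 519.4 and 362.1 CPM in wild type pools (log2 fold change 0.13, SE 0.29, adjusted edgeR p 0.912). Of 31 names of class I chains 22 matched a row and 12 were tested, with 0 called in either direction in edgeR and a median log2 fold change of 0.10. The counts of class I heavy chain rows are shared between similar genes in part, since 94 of 126 values of the 21 mhc1 rows were within 0.001 of a whole number and the others were not. The 126 values include rows with 0 counts in all 6 libraries, such as mhc1uma and mhc1lda. A value of 0 is whole whether or not reads are shared. mhc1uba, a class I heavy chain gene, was at 26.4, 19.0 and 18.9 CPM in runx1 null pools and at 17.9, 4.86 and 10.8 CPM in wild type pools, without overlap (log2 fold change 0.93, SE 0.48, adjusted edgeR p 0.811). For mhc1uba it was 0.57 when wild type pool 2 was left out and 1.445 when wild type pool 1 was. mhc1laa was at 4.67, 4.84 and 5.005 CPM in runx1 null pools and at 7.86, 5.62 and 6.20 CPM in wild type pools, also without overlap (log2 fold change -0.44, SE 0.30, adjusted edgeR p 0.811). mhc1uba and mhc1laa were named for that lack of overlap. They were 1 higher and 1 lower of the 12 tested, against 12.5% of all genes tested. Among heavy chain genes that overlapped, log2 fold changes were 0.03 (SE 0.32) for mhc1zba and -0.05 (SE 0.29) for mhc1zea. They were 0.16 (SE 0.38) for mhc1zda and 0.59 (SE 0.35) for mhc1zaa.

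Peptide loading and proteasome genes were read from 27 names, 20 of which were tested. In edgeR 0 were called, 1 had an unadjusted p-value under 0.05, against 5.23% of all genes tested, and the median log2 fold change was 0.07. That gene was tap2a (ENSDARG00000036787), named for a subunit of the transporter that brings peptides to class I. It was at 19.6, 14.8 and 17.2 CPM in runx1 null pools and at 12.2, 9.85 and 7.51 CPM in wild type pools. The groups did not overlap, as for the 6.24% of all genes tested that were higher in runx1 null without overlap. The log2 fold change was 0.81 (SE 0.29, adjusted edgeR p 0.811). tap2t, a gene of the list named for the same subunit, overlapped between genotypes, with a log2 fold change of -0.12 (SE 0.31). tap1, the other subunit, had a log2 fold change of -0.16 (SE 0.30), and nlrc5, the relative of ciita that acts on class I genes in mammals, one of 0.08 (SE 0.32).

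Interferon gamma is the main inducer of ciita in mammals. Of 15 names on its pathway 13 matched a row and 10 were tested, with 0 called in edgeR and a median log2 fold change of -0.15. ifng1 had at most 2 counts in a library. irf8, a transcription factor of macrophages, dendritic cells and B lymphocytes, was at 4.49, 8.66 and 7.38 CPM in runx1 null pools and at 12.0, 17.0 and 15.6 CPM in wild type pools. The groups did not overlap, as for the 6.25% of all genes tested that were lower in runx1 null without overlap. The log2 fold change was -1.12 (SE 0.34, adjusted edgeR p 0.811). irf8 was the 1 of the 10 tested with an unadjusted p-value under 0.05, against 5.23% of all genes tested. irf1b, named for a factor that interferon gamma induces, had a log2 fold change of -0.14 (SE 0.34).

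Taking the 6 lists as 1, 67 genes were tested. In edgeR 0 were called higher and 0 lower, and 3 had an unadjusted p-value under 0.05, against 5.23% of all genes tested. The pools of both genotypes did not overlap for 4 that were higher and 3 that were lower, against 12.5% of all genes tested in either direction. The median log2 fold change was -0.01.

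The libraries differed in the markers of cells that carry class II. Bulk libraries cannot tell fewer cells of a type from less RNA per cell. The B lymphocyte list of 9 matched genes summed to 23.7, 32.1 and 140.0 CPM in runx1 null pools and to 32.5, 70.3 and 41.2 CPM in wild type pools. The high value of runx1 null pool 3 was ighm, at 113.7 CPM. cd79a, pax5 and cd79b were sparse, did not pass the filter and were not tested. cd79a had 3, 1 and 7 counts in runx1 null and 3, 46 and 20 in wild type. pax5 had 0, 0 and 2 counts in runx1 null and 1, 30 and 11 in wild type. cd79b had 0, 0 and 1 counts in runx1 null and 10, 46 and 38 in wild type. Of the 5 tested genes of the list 4 had a log2 fold change below 0 and 1 above, and all overlapped. Those below were cd37 (-1.64, SE 0.95), ighd (-1.47, SE 0.67), blnk (-0.43, SE 0.47) and btk (-0.04, SE 0.29). The 1 above was ighm (1.58, SE 1.59).

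The macrophage list of 9 matched genes summed to 264, 382 and 289 CPM in runx1 null pools and to 357, 442 and 317 CPM in wild type pools. The log2 fold changes of all 8 tested genes were below 0, as were those of 9821 of the 18865 genes tested, with 0 called in edgeR. They ran from -1.26 (spi1a) to -0.04 (csf1rb, SE 0.47). cd68, the largest part of each sum, had one of -0.09 (SE 0.27). marco, a scavenger receptor of macrophages, was at 47.4, 117.6 and 61.1 CPM in runx1 null and at 57.4, 117.7 and 82.4 CPM in wild type, which overlapped. spi1a, a transcription factor gene of myeloid cells, was at 5.57, 7.31 and 4.82 CPM in runx1 null and at 8.49, 22.2 and 11.9 CPM in wild type, without overlap. Of all genes tested, 6.25% were lower in runx1 null without overlap. The log2 fold change of spi1a was -1.26 (SE 0.42, adjusted edgeR p 0.811). It was the 1 of the 8 tested with an unadjusted p-value under 0.05, against 5.23% of all genes tested. The cd74 sum per unit of the macrophage sum was 0.923, 0.426 and 0.944 in the runx1 null pools and 0.549, 0.489 and 0.507 in the wild type pools, so runx1 null pools 1 and 3 lay above and runx1 null pool 2 below the wild type range. The dendritic cell list of 8 genes summed to 47.7, 47.2 and 51.9 CPM in runx1 null and to 36.8, 42.0 and 44.5 CPM in wild type, without overlap. Of these sums id2a, matched through a synonym, gave 18.3, 11.2 and 17.2 CPM in runx1 null and 3.76, 9.57 and 17.2 CPM in wild type. The id2a pools overlapped, and with id2a left out the sums of the list overlapped between genotypes as well. In that list 5 genes had a log2 fold change above 0 and 3 below. flt3, also of that list, was at 1.68, 1.86 and 1.71 CPM in runx1 null and at 1.25, 3.24 and 2.01 CPM in wild type (log2 fold change -0.31, SE 0.46). The part of these cell types in the class II values was not tested.

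**Figure D4:**
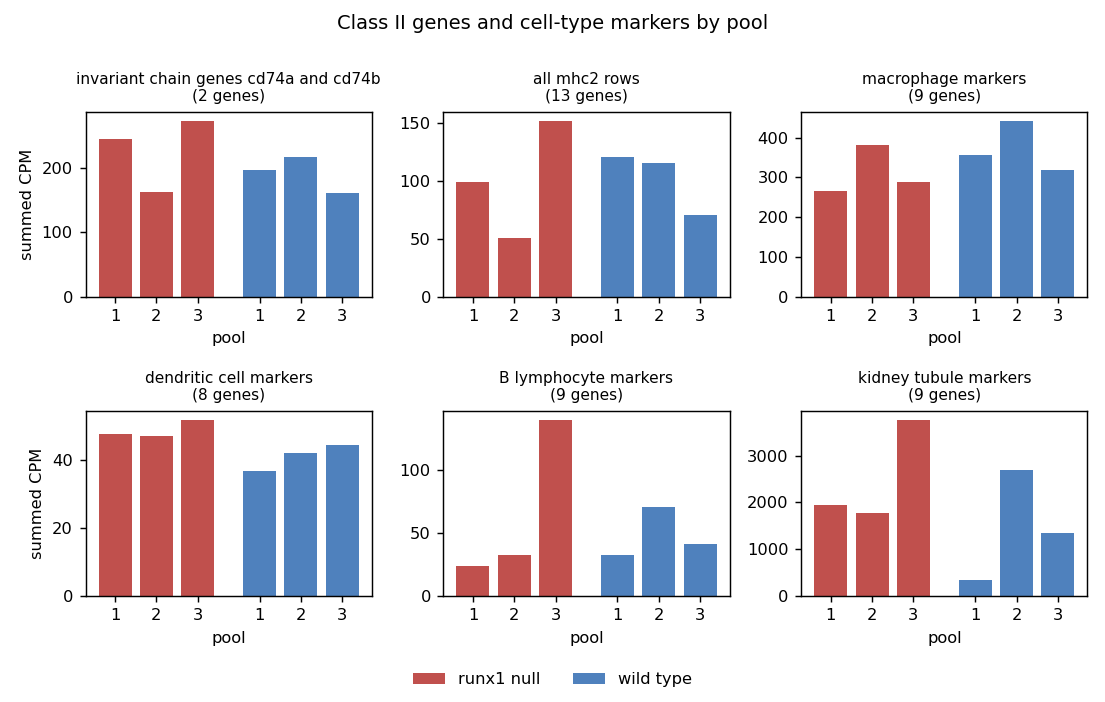
Summed CPM of the cd74 genes, of all mhc2 rows and of 4 marker lists in each pool (bars from 0; runx1 null left, wild type right). Runx1 null pool 2 is lowest for the mhc2 rows, at 50.7 CPM, but not for the macrophage markers, and wild type pool 1 is lowest for the kidney tubule markers, at 334 CPM.

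Across the whole series, libraries held 16147770 to 27480374 expected counts in runx1 null and 23821733 to 30577287 in wild type. runx1 itself had 0, 5 and 5 counts in runx1 null and 8, 5 and 7 in wild type (log2 fold change -1.01, SE 0.86, adjusted edgeR p 0.811), too few to check the genotype of a library. The kidney tubule list summed to 1772 to 3766 CPM in runx1 null and to 334 to 2695 CPM in wild type, with the least in wild type pool 1, whose erythroid list was the highest of all libraries. Thrombocyte markers summed to 388 to 526.2 CPM in runx1 null and to 582.5 to 1238 CPM in wild type. Liver markers summed to 1574 to 30230 CPM in runx1 null and to 53.6 to 6590 CPM in wild type, and pancreas markers to at most 375 CPM in runx1 null and 15.9 CPM in wild type. Runx1 null pool 3 was highest for the kidney tubule, liver and pancreas lists as well as for cd74a, cd74b and b2m, and the part of those tissues in its values was not tested. Wild type pool 3 was the lowest wild type pool for cd74a, cd74b and b2m. It was the highest of all libraries for the oocyte list, at 999.1 CPM, and the part of oocytes in its values was not tested.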

How the data were processed

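The authors deposited 1 table of expected counts per library, with 32266 Ensembl genes; the submitters' processing notes name STAR, RSEM, DESeq2 and the build GRCz10 without their roles. Annotation and use of strand are not given in the sources used here. A counted read is one assigned to the alleles of that build, and expected counts divide reads among similar genes by a model.

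Values were rounded to whole counts. In edgeR 4.0.16 (R 4.3.3), filterByExpr at a minimum count of 10 left 18864 genes, and runx1 was added back. TMM scaling and the quasi-likelihood F test with genotype as the sole term followed, with Benjamini-Hochberg adjustment over all genes at 0.05. A standard error is the size of the log2 fold change divided by the square root of F. log2 CPM used a prior count of 2. DESeq2 1.42.0 was an alternative. The fits were tested on simulated data. Without any change put in, edgeR made no call and DESeq2 made some. Of the changes put in, edgeR missed most of the smaller ones, which were still several-fold. Symbols covered 26433 genes; other names were matched by unique synonym in the RefSeq list of GRCz12tu, which was otherwise used for which genes neighbour each other. The design had assumed whole counts.

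Members and lists were chosen with earlier results of these data known. All members, runx1, class II list genes whose mean log2 CPM was 0 or more, and the class I and interferon genes without overlap whose mean log2 CPM was 1 or more (up to 3 in each direction) were named, with the 3 nearest profiles (among genes whose mean log2 CPM was 3 or more). Other genes of these lists, among them b2ml, mhc1zba, tap1, nlrc5 and irf1b, were named in addition and by no fixed rule. The rows beginning with mhc2 or mhc1 were added once the symbols were known. mhc2a was not analysed here, nor were promoter or protein sequences. mpeg1.1, a macrophage marker, had no unique match.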

Additional observations from a re-analysis of the deposited data

How the results depend on the processing

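Across 13 alternatives 0 of the 6 measured genes passed the threshold, and so did 0 in edgeR over all genes. The DESeq2 Wald test called 105 genes over all, 1 of them, ctss1 (log2 fold change -2.77), on the antigen presentation lists. cd74a, cd74b and b2m stayed positive in all 13. The lowest values of cd74b (0.043) and b2m (0.081) came without wild type pool 3. Leaving out 1 library at a time, the log2 fold changes ran from 0.11 to 0.46 for cd74a, from 0.043 to 0.35 for cd74b, from -0.46 to 0.15 for mhc2dab, from 0.081 to 0.39 for b2m, from -0.27 to 0.26 for ciita and from -0.093 to 0.27 for rfx5. mhc2daa ran from -0.88 (without runx1 null pool 3) to 0.10 (without runx1 null pool 2). The shifts between 2 genes ran from -0.0024 to 0.17 for cd74a minus cd74b, from -0.14 to 0.13 for cd74a minus b2m, from -0.28 to 0.19 for ciita minus rfx5, from 0.050 to 0.44 for cd74a minus ciita and from -0.96 to -0.12 for mhc2dab minus b2m. Each pool holds its own fish, and between pools of 1 number the correlations of deviations from the group means were 0.094, -0.364 and 0.456 for pools 1, 2 and 3, so the number was not taken as a pairing. In the fit with the replicate block there were 0 calls, 901 genes at an unadjusted p-value under 0.05 against 987 without it, and the ciita log2 fold change was 0.0046. The unrounded expected counts were an alternative chosen after seeing the data. The causes of these sign changes were not tested. ciita, at 98 to 193 counts a library, and the mhc2 rows under 60 counts are limited by depth.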

Other observations

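Genes of the dendritic cell list that act beside class II were read in addition. cd83, whose product holds class II at the cell surface in mammals, was at 2.81, 2.74 and 3.12 CPM in runx1 null pools and at 2.03, 1.74 and 1.82 CPM in wild type pools, without overlap. Its log2 fold change was 0.63 (SE 0.34, adjusted edgeR p 0.811). hepacam2, a dendritic cell list gene, was at 2.75, 2.17 and 4.30 CPM in runx1 null and at 1.30, 1.82 and 1.67 CPM in wild type, also without overlap (log2 fold change 0.94, SE 0.42, adjusted edgeR p 0.811). cd40, the receptor through which T cells activate presenting cells, overlapped between genotypes, with a log2 fold change of -0.15 (SE 0.32, adjusted edgeR p 0.908). cd83 and hepacam2 were the 2 of 8 tested genes of that list without overlap, against 12.5% of all genes tested, and both were singled out after their values were seen. Of the 8 genes 5 had a log2 fold change above 0 and 3 below. Those below were cd40, batf3 (-0.93, SE 0.78) and flt3 (-0.31, SE 0.46), which all overlapped between genotypes.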
